A study of Mus musculus with 48 samples.

Results

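The genes described here are 7 rows of the deposited count table, chosen by their symbols: Abca1, Abcg1, Nr1h2, Nr1h3, Mylip, Apoe and Lpl. They stand for the liver X receptors (LXRs) and their best known targets in sterol export and lipoprotein handling, and all 7 were found among the 49568 genes of the table. All 7 also passed the filter on low counts in every fit, so each was tested in each comparison.

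LXRs are nuclear receptors that sense oxidized cholesterol. Paired with a retinoid X receptor on DNA, they raise transcription of genes that move cholesterol out of the cell and of genes of fatty acid synthesis. Macrophages take up much cholesterol with the lipoproteins and dead cells they engulf, and LXR activity there is known to limit lipid loading and to restrain inflammatory genes. Nr1h3 encodes LXRα and Nr1h2 encodes LXRβ. Abca1 and Abcg1 encode the membrane transporters that pass cholesterol to lipid-poor apolipoprotein A-I and to larger lipoprotein particles. Apoe encodes an apolipoprotein that macrophages secrete as a cholesterol acceptor, Lpl encodes the lipase that releases fatty acids from triglyceride-rich lipoproteins, and Mylip (also called Idol) encodes a ubiquitin ligase that limits lipoprotein uptake.

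LXRs bind pairs of a 6-base half-site in the same orientation with 4 bases between them. The window around the RefSeq start of Abca1 (GRCm38.p6, minus strand, chr4:53159846-53160145, 250 bases before to 50 bases after the start) is shown because Abca1 was the gene called in most comparisons, 9 of 16. Capitals mark a match to the spelling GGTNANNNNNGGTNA, with N for any base, which puts N at positions that vary between half-sites.
Abca1: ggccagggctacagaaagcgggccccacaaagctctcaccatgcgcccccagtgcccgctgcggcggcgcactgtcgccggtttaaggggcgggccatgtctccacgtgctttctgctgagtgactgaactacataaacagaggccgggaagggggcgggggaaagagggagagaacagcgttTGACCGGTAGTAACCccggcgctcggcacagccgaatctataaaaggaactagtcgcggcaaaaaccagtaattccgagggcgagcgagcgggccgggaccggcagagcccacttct
The match lies 67 to 53 bases before the start and reads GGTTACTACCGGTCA on the other strand. Both strands were searched, and the spelling was chosen after this window had been read. It was held by 236 of 32851 windows of the same length around RefSeq starts (0.718%). Of the 7 genes, 5 had windows in the table, 8 in all, and Abca1 was the 1 gene with a match. Abcg1 and Lpl had no entry. The strict spelling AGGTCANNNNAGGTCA was held by 5 of all windows and by 0 of these 8. A match describes letters and is not a measured binding site.

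On GRCm38 the genes lie on 6 chromosomes, and each is annotated as protein coding. Abca1 spans chr4:53030787-53159895 and Nr1h3 spans chr2:91184061-91202834. Nr1h2 (chr7:44549616-44553951) and Apoe (chr7:19696109-19699188) share chromosome 7. Abcg1 spans chr17:31057675-31117988, Mylip chr13:45389742-45412022 and Lpl chr8:68880491-68907448. Nr1h3 shares 34 exon bases, over all annotated transcripts, with a transcript of the same strand, Gm13783, and the other 6 genes share none with another annotated gene.

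The cells were RAW264.7, a mouse macrophage line. They were kept for 72 h with PBS, with 1 of 3 synthetic 15-residue peptides at 100 µg/ml, with 5 ng/ml IFN-γ, a cytokine that activates macrophages, or with a peptide and IFN-γ together. The peptides copy residues 65 to 79 of the HLA-DR β chain as encoded by a lupus risk allele (LE), an allele tied to rheumatoid arthritis (SE) and a protective allele (PE). The 48 libraries fall into 8 groups of 6, of which 3 carry a letter and 3 carry HLA in their label. The medium was renewed once during the treatment, and all groups share the same line and medium, with no gene deleted or added. The study describes the 6 libraries of a group as biological replicates from more than 1 independent experiment. The labels do not say which library came from which experiment or culture, so the 3 tested libraries of a group may share 1 experiment. The p-values set a change against the spread among libraries of the same group. That spread was estimated over all groups of a fit, with information shared across genes. It may not cover the spread between experiments.

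Levels of 10 genes that IFN-γ induces were set against the labels first. Their mean level, in log2 of counts per mega library counts (CPM), was 5.29 to 6.22 in the 12 letter-labelled libraries with IFN-γ and -0.23 to 0.30 in the 12 without it. Among the 24 HLA-labelled libraries, 12 went against their label, so the comparisons use the letter-labelled libraries, and values with the HLA-labelled ones are given apart. In the count table the HLA columns stand in 8 runs, each after the letter columns of 1 group, and 0 of 24 carry the label of the letter columns before them. The IFN-γ-induced genes were high or low as in those letter columns in 24 of 24. Which key is right was not settled, so each value given by HLA label may belong to another treatment. The letter-labelled libraries hold 16.5 M to 26.9 M counts (M for mega). The summed level of 8 macrophage markers was 6680 to 12300 CPM. The lists for T cells, B cells, fibroblasts, epithelium, adipocytes and hepatocytes summed to at most 0.271 CPM, and 3 endothelial markers, mostly Kdr, to 0.845 to 2.62 CPM. In RNA from whole cultures, fewer expressing cells and less RNA per cell cannot be told apart.

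A gene was called when its adjusted p (edgeR quasi-likelihood test, Benjamini-Hochberg over all genes tested) was under 0.05 and its fold change over 1.5. Over 16 comparisons the 7 genes gave 112 values, of which 26 were called, 19 higher and 7 lower. Abca1 was called in 9 comparisons, Nr1h3 in 7, Apoe and Lpl in 5 each, and Abcg1, Nr1h2 and Mylip in 0. The background was as follows. Between IFN-γ and PBS, 18.1% of 12242 genes were called, and 2 of the 7. With peptides alone against PBS, the call rate over all genes was 0.0242% (LE), 1.92% (SE) and 3.13% (PE), and 0, 1 and 1 of the 7 were called. With a peptide added to IFN-γ (Model A), the rate was 15.5% (LE), 7.39% (SE) and 0.629% (PE), and 3, 1 and 0 of the 7 were called. Among IFN-γ-treated cells, it was 4.93% (LE against SE), 21.6% (LE against PE) and 7.59% (SE against PE), with 1, 3 and 3 of the 7. With IFN-γ added to a peptide (Model B), it was 35.1% (LE), 26.3% (SE) and 21% (PE), with 3, 2 and 2 of the 7. For the interaction, the difference between a peptide's change with IFN-γ and its change without it, the rate was 18.9% (LE), 7.96% (SE) and 0% (PE), with 3, 1 and 0 of the 7. For PE, where edgeR and DESeq2 each called 0 of 13096 genes, 1073 had an unadjusted edgeR p under 0.05. In the 3 comparisons with none of the 7 called, unadjusted edgeR p-values under 0.05 were held by 2 (LE against PBS), 3 (PE added to IFN-γ) and 2 (PE interaction) of them, and DESeq2 also called 0. Over all genes, such p-values were held by 1953 of 12420 (LE against PBS) and 3580 of 12720 (PE added to IFN-γ). Several comparisons share the same control libraries and are not independent of each other.

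**Figure D1:**
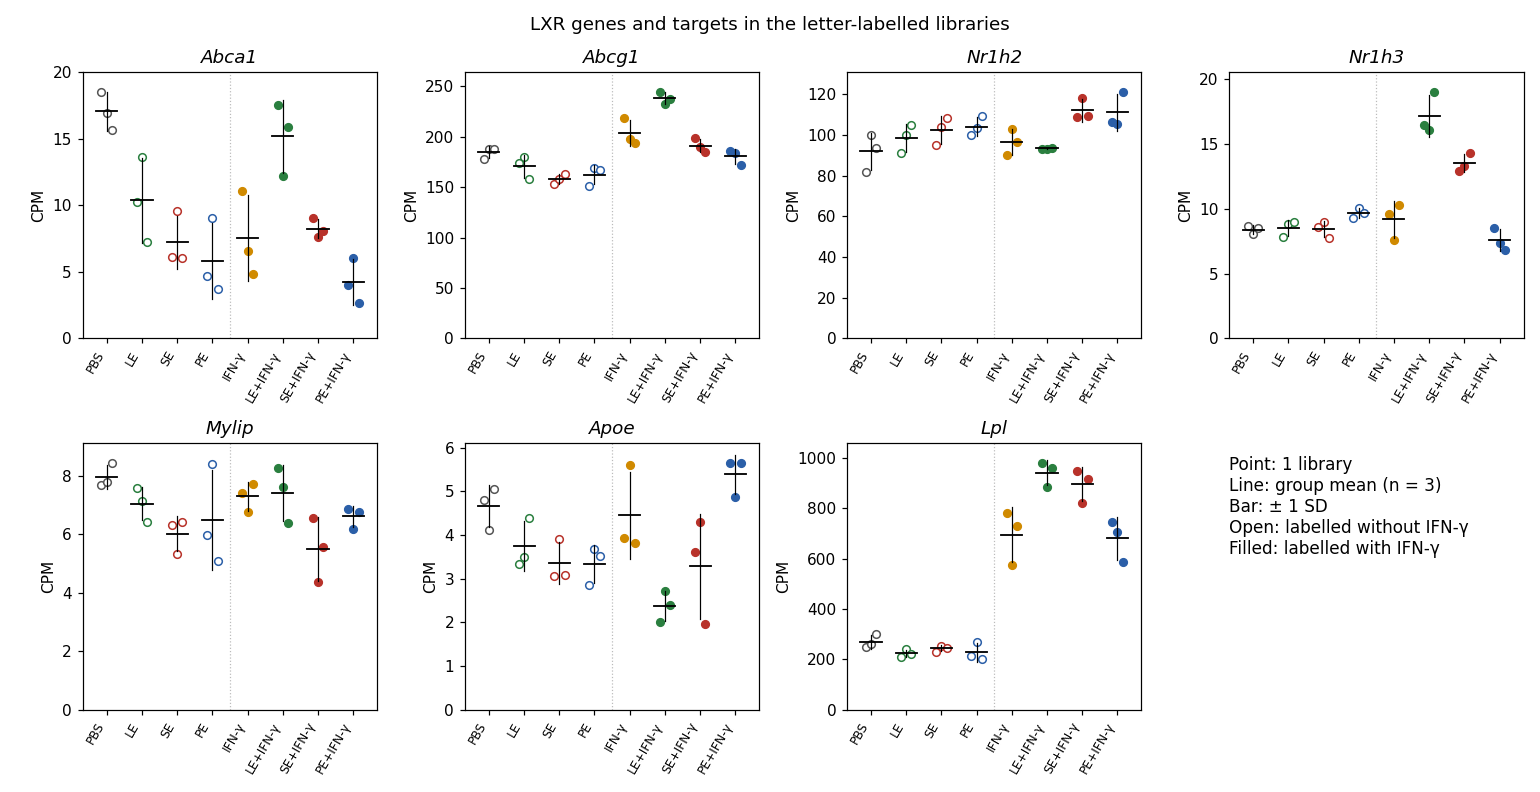
Level of each gene in CPM (vertical axis, from 0) in the 24 letter-labelled libraries, by group (horizontal axis), with a point for each library, a line at the group mean and a bar of ± 1 SD (n = 3). Abca1 was highest in PBS at 17.05 CPM, and Nr1h3 reached 17.18 CPM with LE and IFN-γ against 8.39 CPM in PBS.

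Levels between genes were compared per kilobase of exon. The median over the 24 letter-labelled libraries was 106 CPM per kilobase for Lpl, 50.5 for Nr1h2, 27.0 for Abcg1, 4.17 for Nr1h3, 2.09 for Mylip, 2.04 for Apoe and 0.834 for Abca1. LXRβ was thus the more abundant receptor transcript and Abcg1 the more abundant transporter transcript in these cells. Apoe rested on 50 to 137 counts per library and Abca1 on 61 to 460, whereas Lpl rested on 3293 to 25773.

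Nr1h3, the LXRα gene, rose when LE or SE was given together with IFN-γ. The PBS libraries had 8.66, 8.02 and 8.49 CPM, and the IFN-γ libraries 9.63, 7.57 and 10.3 CPM. The 2 groups overlapped, and the change of 0.14 ± 0.15 (log2 fold change ± SE) did not pass (adjusted p = 0.476). The LE+IFN-γ libraries had 16.4, 16.1 and 19.0 CPM, above every library of every other group. Against IFN-γ alone this was 1.89-fold higher (log2 fold change 0.92 ± 0.12, edgeR adjusted p = 3.99e-06). The SE+IFN-γ libraries had 12.95, 13.3 and 14.3 CPM, also above every IFN-γ library. Their rise against IFN-γ, 0.59 ± 0.12 on the log2 scale (edgeR adjusted p = 0.000882), lay at the fold threshold. It fell below that threshold without IFN-γ replicate 2 (0.46), without SE+IFN-γ replicate 3 (0.55) and without replicate 2 of all groups (0.47). The same held with an offset for transcript length and GC content (0.56). The PE+IFN-γ libraries had 8.50, 7.38 and 6.85 CPM and overlapped with IFN-γ alone, at -0.25 ± 0.13 on the log2 scale (adjusted p = 0.21).

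The peptides on their own left Nr1h3 within a narrow range. The LE libraries had 7.80, 8.82 and 8.95 CPM, the SE libraries 8.57, 8.95 and 7.78 CPM and the PE libraries 9.26, 10.03 and 9.64 CPM. No peptide alone was called against PBS, with log2 fold changes of 0.07, 0.08 and 0.29 (95% interval for PE 0.04 to 0.54). Adding IFN-γ to LE raised Nr1h3 1.98-fold (edgeR adjusted p = 6.06e-08) and adding it to SE 1.56-fold (edgeR adjusted p = 3.14e-05), which fell below the fold threshold without replicate 3 of all groups (0.56 on the log2 scale). With PE the value was -0.40 ± 0.11 on the log2 scale (adjusted p = 0.00504), under the fold threshold. The interaction for LE was 0.84 ± 0.16 (edgeR adjusted p = 0.000282) and was called without each of the 24 libraries in turn. For SE it was 0.50 ± 0.16 (adjusted p = 0.0317), under the fold threshold but called without IFN-γ replicate 3 (0.61, adjusted p = 0.0146), and for PE -0.55 ± 0.17 (adjusted p = 0.506).

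Set against each other with IFN-γ present, LE gave 2.25-fold more Nr1h3 than PE (edgeR adjusted p = 2.37e-07), and SE gave 1.79-fold more than PE (edgeR adjusted p = 4.06e-05). LE exceeded SE by 0.33 on the log2 scale (95% interval 0.10 to 0.57, adjusted p = 0.0281), which passed the p but not the fold. In the order of group means, LE+IFN-γ (17.18 ± 1.62 CPM, SD, n = 3) and SE+IFN-γ (13.52 ± 0.70) stood apart from the groups next to them. The other 6 groups, from PE at 9.64 to PE+IFN-γ at 7.58 CPM, each overlapped with the next.

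Nr1h2, the LXRβ gene, was called in no comparison. Its 24 values ran from 81.96 to 121 CPM. With IFN-γ, SE and PE lay above IFN-γ alone by 0.24 ± 0.07 (adjusted p = 0.00876) and 0.23 ± 0.07 (adjusted p = 0.0352) on the log2 scale, and LE gave -0.03 ± 0.07 (95% interval -0.17 to 0.10). LE+IFN-γ lay below SE+IFN-γ by 0.27 and below PE+IFN-γ by 0.26 on the log2 scale (log2 fold changes -0.27 and -0.26, adjusted p = 0.00397 and 0.00213). With the offset for length and GC content these became -0.01 and 0.12, so the direction against PE turned, and LE against IFN-γ alone became 0.18 ± 0.05 (adjusted p = 0.00401).

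Abca1, the exporter to lipid-poor apolipoprotein, fell against PBS with IFN-γ, SE or PE alone, and among IFN-γ-treated cells it was highest with LE. The PBS libraries had 18.5, 16.9 and 15.7 CPM and stood above every library of the groups given LE, SE, PE or IFN-γ alone. The IFN-γ libraries had 11.1, 6.58 and 4.86 CPM. The fall of 2.24-fold with IFN-γ was called (log2 fold change -1.16 ± 0.22, edgeR adjusted p = 0.00162), and it held without each of the 6 libraries (-1.54 to -0.94).

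Among the peptides alone, SE and PE lowered Abca1 against PBS, and LE did not pass. The LE libraries had 10.3, 13.6 and 7.24 CPM, the SE libraries 6.12, 9.54 and 6.04 CPM and the PE libraries 4.72, 9.08 and 3.70 CPM. Replicate 2 was the highest in all 3 groups. Against PBS, PE was 2.73-fold lower (log2 fold change -1.45 ± 0.27, edgeR adjusted p = 0.00645) and SE 2.26-fold lower (-1.18 ± 0.27, edgeR adjusted p = 0.0152). LE was at -0.67 ± 0.26 (95% interval -1.23 to -0.11, adjusted p = 0.262), and without a filter on low counts it was called (adjusted p = 0.00286). The SE call was lost without SE replicate 1 (adjusted p = 0.0644) or SE replicate 3 (adjusted p = 0.0665). Leaving out replicate 1 of all groups ended both calls (adjusted p = 0.232 for SE and 0.185 for PE). Without replicate 3 of all groups the SE call was lost (edgeR adjusted p = 0.0746) and the PE call was kept (edgeR adjusted p = 0.0482).

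Transcript length moved with these comparisons. Abca1 has the longest transcript of the 7 genes, 10262 bases. Over 12064 genes, the log2 fold change fell with transcript length, with a Spearman rho against PBS of -0.40 (LE), -0.48 (SE) and -0.49 (PE). It rose with GC content, with a Spearman rho of 0.45 (LE), 0.38 (SE) and 0.42 (PE). These are descriptions across genes that share the same libraries. The longest decile of genes had a median log2 fold change of -0.26 with SE and -0.30 with PE, and Abca1 lay below all but 0.166% and 0.0829% of that decile. With an offset for length and GC content, Abca1 was at -0.86 ± 0.21 with SE (edgeR adjusted p = 0.0296) and -1.09 ± 0.21 with PE (edgeR adjusted p = 0.012). What sets the trends with length and GC content was not tested.

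With IFN-γ present, LE gave more Abca1 than each other group. The LE+IFN-γ libraries had 17.5, 12.2 and 15.9 CPM, the SE+IFN-γ libraries 9.05, 7.62 and 8.07 CPM and the PE+IFN-γ libraries 3.98, 6.07 and 2.66 CPM. All LE+IFN-γ libraries lay above all libraries of the other 3 IFN-γ-treated groups. LE raised Abca1 2.03-fold over IFN-γ alone (log2 fold change 1.02 ± 0.24, edgeR adjusted p = 0.00148), and this was called without each of the 12 libraries in turn (0.81 to 1.41). SE gave 0.15 ± 0.25 (95% interval -0.36 to 0.67, adjusted p = 0.675). PE gave -0.80 ± 0.27 (95% interval -1.36 to -0.24), which did not pass (adjusted p = 0.0612). It would have been called without IFN-γ replicate 2 (adjusted p = 0.0445), IFN-γ replicate 3 (adjusted p = 0.0241) or PE+IFN-γ replicate 2 (adjusted p = 0.0149), and without the filter on low counts (adjusted p = 2.15e-06).

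Between peptides, LE+IFN-γ had 1.82-fold more Abca1 than SE+IFN-γ (edgeR adjusted p = 0.00822) and 3.53-fold more than PE+IFN-γ (edgeR adjusted p = 7.58e-06), and SE+IFN-γ had 1.94-fold more than PE+IFN-γ (edgeR adjusted p = 0.00901). The LE against SE call was lost with a replicate block and the offset together (0.58, adjusted p = 0.0226, under the fold threshold). The SE against PE call was lost without replicate 1 (adjusted p = 0.0502) or replicate 3 (adjusted p = 0.0589) of all groups. In the LE against PE comparison the longest decile of genes had a median of 0.36 on the log2 scale, and with the offset Abca1 was at 1.38 ± 0.21 (edgeR adjusted p = 2.28e-05). Adding IFN-γ to a peptide gave no call for Abca1: the log2 fold change was 0.52 ± 0.26 with LE, 0.17 ± 0.28 with SE and -0.53 ± 0.30 with PE. LE was called without LE replicate 2 (0.76, adjusted p = 0.0282) and without replicate 2 of all groups (0.92, adjusted p = 0.000366). PE was called without PE+IFN-γ replicate 2 (-0.88, adjusted p = 0.034) and with the offset (-0.59 ± 0.24, adjusted p = 0.047).

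The log2 fold change of Abca1 with LE was -0.67 without and 1.02 with IFN-γ, and the test of that difference passed. The interaction was 1.68 ± 0.39 for LE (edgeR adjusted p = 0.00145) and 1.33 ± 0.40 for SE (edgeR adjusted p = 0.0206). For PE it was 0.63 ± 0.42 (95% interval -0.24 to 1.49, adjusted p = 0.671). The LE interaction was called without each of the 24 libraries in turn. The SE interaction was lost, at an adjusted p of 0.0501 to 0.0616, without SE replicate 1 or 3, IFN-γ replicate 2 or 3, or SE+IFN-γ replicate 1. Leaving out replicate 1 or replicate 3 of all groups also ended that call (edgeR adjusted p = 0.0981 and 0.106). In the order of group means, from PBS at 17.05 ± 1.44 CPM (SD, n = 3) through LE+IFN-γ at 15.18 ± 2.72, LE at 10.37 ± 3.19, SE+IFN-γ at 8.25 ± 0.73, IFN-γ at 7.52 ± 3.23, SE at 7.23 ± 2.00 and PE at 5.83 ± 2.86 to PE+IFN-γ at 4.24 ± 1.72, the libraries of each group overlapped with those of the next.

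Abcg1, the exporter to larger particles, moved little. Its 24 values ran from 151 to 245 CPM, and no comparison reached the fold threshold. LE+IFN-γ, with 245, 233 and 238 CPM, lay above every other library. It exceeded IFN-γ alone by 0.24 ± 0.05 (adjusted p = 0.000749), PE+IFN-γ by 0.39 ± 0.05 (adjusted p = 5.2e-06) and LE alone by 0.46 ± 0.06 (adjusted p = 4.27e-07), all on the log2 scale. The interaction for LE was 0.30 ± 0.08 (adjusted p = 0.00564). Against PBS, LE, SE and PE alone gave -0.07, -0.15 and -0.10 on the log2 scale, and none passed. With the offset the LE interaction was 0.20 ± 0.07 (adjusted p = 0.0442).

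**Figure D2:**
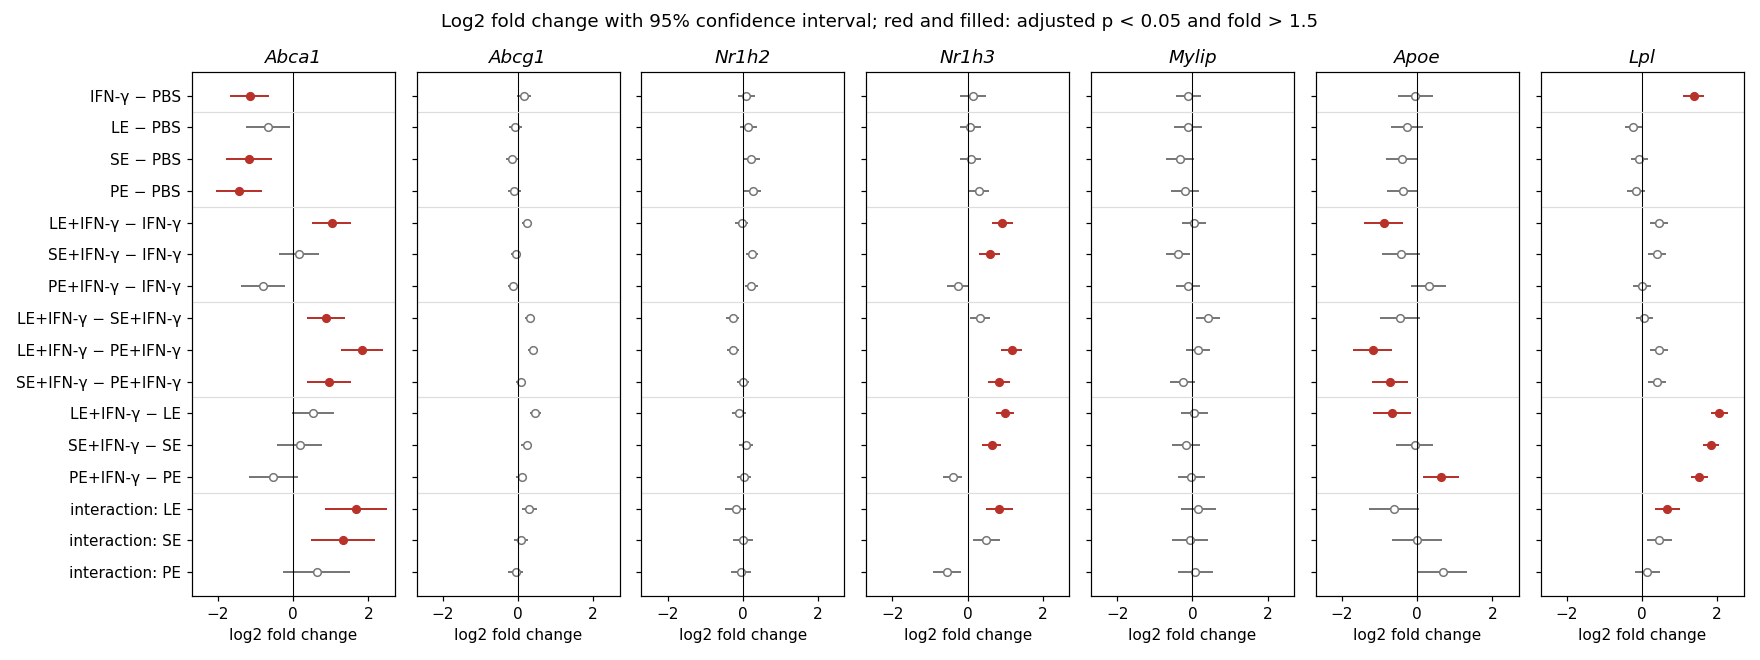
Log2 fold change (horizontal axis) of each gene in the 16 comparisons (rows) of the letter-labelled libraries, with bars for the 95% confidence interval. Red filled points passed an adjusted p of 0.05 and a fold of 1.5, and the filled points lie in the panels of Abca1, Nr1h3, Apoe and Lpl.

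Lpl, the lipase gene and the most abundant of the 7, rose with IFN-γ whether or not a peptide was present. The PBS libraries had 247.8, 261 and 299.7 CPM and the IFN-γ libraries 783, 573 and 728 CPM, with no overlap. The rise was 2.6-fold (log2 fold change 1.38 ± 0.12, edgeR adjusted p = 3.27e-06). The LE libraries had 209.6, 240.3 and 219 CPM, and IFN-γ raised Lpl 4.15-fold there, to 980.4, 885 and 961 CPM (edgeR adjusted p = 1.45e-13). The rise was 3.58-fold with SE, to 948, 823 and 918 CPM, and 2.88-fold with PE, to 747, 707 and 586 CPM (edgeR adjusted p = 9.34e-13 and 2.18e-11). The lowest IFN-γ-treated library, at 573 CPM, lay above the highest untreated one, at 299.7 CPM.

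With IFN-γ present, LE and SE gave still more Lpl, by less than the fold threshold. LE+IFN-γ exceeded IFN-γ alone by 0.45 ± 0.10 (adjusted p = 0.000804) and SE+IFN-γ by 0.39 ± 0.10 (adjusted p = 0.00431) on the log2 scale. PE+IFN-γ differed from IFN-γ by -0.00 ± 0.10 (95% interval -0.21 to 0.20). LE and SE with IFN-γ differed by 0.06 ± 0.10 (95% interval -0.14 to 0.26, adjusted p = 0.664). The interaction was 0.67 ± 0.15 for LE (edgeR adjusted p = 0.00119) and 0.46 ± 0.15 for SE (adjusted p = 0.0316, under the fold threshold). The LE interaction fell under the fold threshold without PBS replicate 3 (0.58), without IFN-γ replicate 2 (0.55) and with the offset for length and GC content (0.41).

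Apoe, the secreted cholesterol acceptor, fell when LE was added to IFN-γ, at low counts throughout. The IFN-γ libraries had 3.93, 5.6 and 3.82 CPM and the LE+IFN-γ libraries 2.02, 2.71 and 2.40 CPM, with no overlap. Apoe was 1.86-fold lower with LE (log2 fold change -0.89 ± 0.23, edgeR adjusted p = 0.00384). The SE+IFN-γ libraries had 3.60, 4.29 and 1.96 CPM, and replicate 3 stood far below the others. SE gave -0.42 ± 0.23 (adjusted p = 0.166) and PE 0.30 ± 0.22 (adjusted p = 0.384) against IFN-γ alone. The SE value was called without SE+IFN-γ replicate 2 (-0.66, adjusted p = 0.0491). LE against SE was at -0.47 ± 0.24 with overlapping libraries (adjusted p = 0.138) and was called without SE+IFN-γ replicate 3 (-0.74, adjusted p = 0.0133). The PE+IFN-γ libraries had 5.65, 4.88 and 5.65 CPM.

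LE+IFN-γ had 2.29-fold less Apoe than PE+IFN-γ (log2 fold change -1.19 ± 0.23, edgeR adjusted p = 0.000223), and this was called without each of the 12 libraries. SE+IFN-γ had 1.65-fold less than PE+IFN-γ (edgeR adjusted p = 0.0171), a call that was lost without SE+IFN-γ replicate 3 (adjusted p = 0.0995) or PE+IFN-γ replicate 3 (adjusted p = 0.0545). Without SE+IFN-γ replicate 3, the value was -0.44, and with the offset it was -0.58. Against PBS, the libraries with peptide alone lay at -0.27, -0.41 and -0.39 on the log2 scale for LE, SE and PE, and none passed. With the offset, SE (-0.69 ± 0.19, edgeR adjusted p = 0.0479) and PE (-0.71 ± 0.19, edgeR adjusted p = 0.0352) were called.

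Adding IFN-γ moved Apoe in opposite directions with LE and PE. It was 1.59-fold lower with LE (edgeR adjusted p = 0.014) and 1.56-fold higher with PE (edgeR adjusted p = 0.0193), and -0.07 ± 0.23 on the log2 scale with SE. Whether the LE and PE responses differ from each other was not tested. The call for IFN-γ added to LE was lost without LE replicate 3 (adjusted p = 0.0762) and without LE+IFN-γ replicate 1 (adjusted p = 0.0715). It was also lost with the offset, which left -0.20 ± 0.22 (adjusted p = 0.453). Leaving out replicate 1 or replicate 3 of all groups ended it too (edgeR adjusted p = 0.0921 and 0.0503). The call for IFN-γ added to PE was lost without PE replicate 1 (adjusted p = 0.084), PE+IFN-γ replicate 1 (adjusted p = 0.0504) or PE+IFN-γ replicate 3 (adjusted p = 0.0546). Leaving out replicate 1 of all groups ended it as well (edgeR adjusted p = 0.202).

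**Figure D3:**
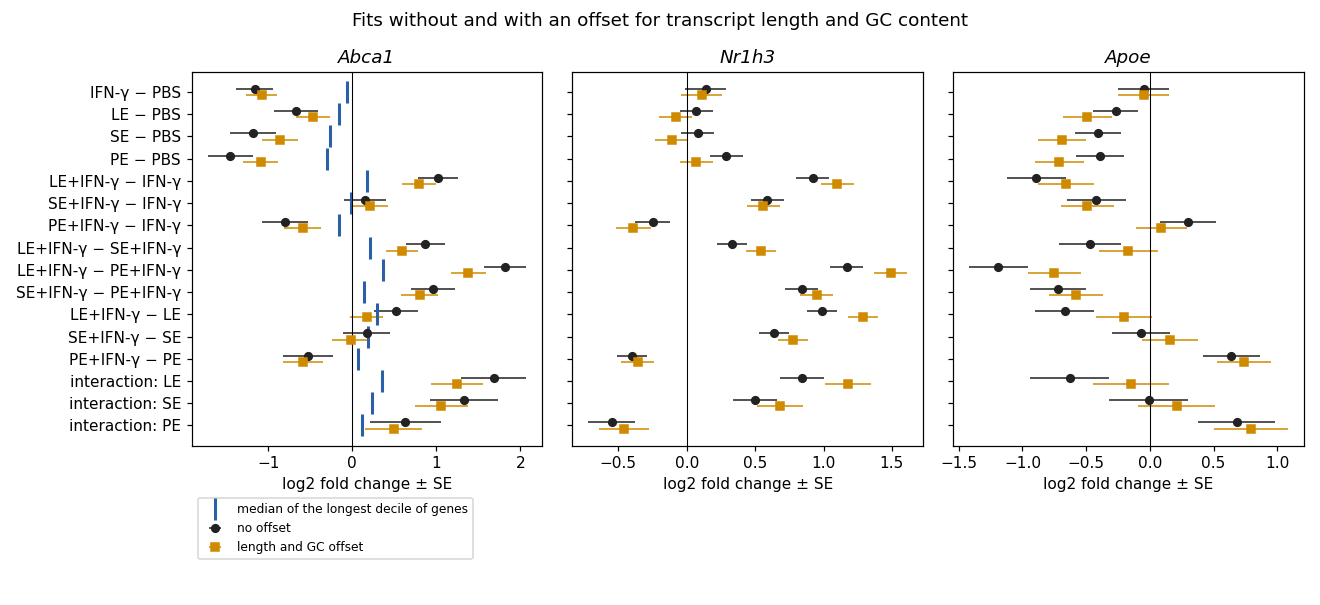
Log2 fold change ± SE (horizontal axis) of Abca1, Nr1h3 and Apoe in each comparison (rows), without (black) and with (orange) an offset for transcript length and GC content, and in the Abca1 panel the median of the longest decile of genes (blue). The offset moved Abca1 toward 0 in most rows, to -1.09 for PE against PBS, and moved Nr1h3 away from 0 for LE+IFN-γ against IFN-γ, to 1.1.

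Mylip, the ligase gene, was called in no comparison. Its 24 values ran from 4.38 to 8.44 CPM, on 84 to 217 counts. Its strongest values were -0.38 ± 0.14 for SE+IFN-γ against IFN-γ (adjusted p = 0.0496) and 0.42 ± 0.14 for LE+IFN-γ against SE+IFN-γ (adjusted p = 0.0286) on the log2 scale, both under the fold threshold. With the offset the former was -0.33 ± 0.14 (adjusted p = 0.0705).

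The 7 genes differed in their patterns. Over the 24 letter-labelled libraries, the Pearson correlation of log2 CPM was 0.41 between Abca1 and Abcg1, 0.35 between Abca1 and Nr1h3, 0.69 between Abcg1 and Nr1h3 and 0.77 between Abcg1 and Lpl. It was -0.74 between Nr1h3 and Apoe and -0.69 between Abca1 and Nr1h2. The libraries share group structure and depth, so these are descriptions. Among 13096 genes, those most like Abca1 were Ash1l (r = 0.96), Fubp3 (0.94) and Birc6 (0.93). Their longest transcripts have 11644, 3648 and 15768 bases. The genes most like Nr1h3 were Nckap1l (0.95), Cd83 (0.95) and Lgmn (0.94), and those most like Lpl were Clec9a, Upp1 and the IFN-γ-induced chemokine Cxcl9 (0.99 each). For Abcg1 they were Tpr (0.94), Pcnt (0.93) and Rbm33 (0.93), and for Nr1h2 Tpgs1 (0.94), Lemd2 (0.93) and Rhog (0.92). For Apoe they were Abca7 (0.82), Fam117a (0.76) and Cdc42ep3 (0.74), and for Mylip Arhgef6 (0.71), Gm20342 (0.70) and Ss18 (0.69). Over the 8 group means, 3 of these 21 genes were again among the top 3.

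Other LXR targets were taken as a list of 14 genes, of which 9 to 10 were tested. Between IFN-γ and PBS, 2 rose and 2 fell, where 18.1% of all genes tested were called. Cd5l, which encodes a secreted macrophage protein, rose 1.88-fold (edgeR adjusted p = 0.000806) and Smpdl3a 1.78-fold (edgeR adjusted p = 0.000309), while Fasn, the fatty acid synthase gene, was 1.82-fold lower (edgeR adjusted p = 1.45e-05). With LE added to IFN-γ, 0 rose and 4 fell, and the list's median was -0.33 against -0.01 over all genes. With SE 3 fell, and with PE 0 were called. Over all genes tested, the call rate was 15.5% (LE), 7.39% (SE) and 0.629% (PE). Scd2 and Scd1, stearoyl-CoA desaturase genes, fell with LE, 3.02-fold and 2.16-fold (edgeR adjusted p = 1.42e-11 and 1.88e-08), and Fasn fell 1.78-fold (edgeR adjusted p = 2.06e-08). Scd2 went from 419.5 ± 26.6 CPM (SD, n = 3) with IFN-γ to 137 ± 5.88 with LE+IFN-γ and 132 ± 13.8 with SE+IFN-γ, and was 331 ± 12.9 with PE+IFN-γ. These lipid synthesis genes thus fell in the comparison in which Abca1 and Nr1h3 rose.

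The enzymes that make or remove LXR-activating sterols were a list of 6, of which 1 to 2 were tested. Ch25h and Cyp7b1 had 0 counts in all 24 letter-labelled libraries. Cyp27a1, the sterol 27-hydroxylase gene, fell 1.69-fold with LE added to IFN-γ (edgeR adjusted p = 8.5e-07). It was not called for SE or PE added to IFN-γ, or for IFN-γ against PBS (log2 fold change -0.29 ± 0.08, adjusted p = 0.0167).

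Of 12 partner and cofactor genes, 11 were tested. Rxra, the retinoid X receptor α gene, was 1.73-fold lower with IFN-γ (edgeR adjusted p = 0.000202), at 40.2 ± 3.95 CPM in PBS and 23.0 ± 3.16 CPM with IFN-γ (SD, n = 3). Tbl1xr1, a subunit of the corepressor complex that LXR can recruit, rose 1.79-fold with LE added (edgeR adjusted p = 1.24e-07). No other gene of this list was called in these 2 comparisons, where 18.1% and 15.5% of all genes tested were called.

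Genes of sterol uptake, lysosomal exit and esterification were a list of 13, of which 12 were tested. Between IFN-γ and PBS, 2 rose and 1 fell, where 18.1% of all genes tested were called. IFN-γ raised Cd36, a scavenger receptor gene, 5.42-fold (edgeR adjusted p = 9.86e-08) and Gramd1b, which encodes a sterol transfer protein, 1.63-fold (edgeR adjusted p = 1.96e-05), and lowered Lrp1, a lipoprotein receptor gene, 2.17-fold (edgeR adjusted p = 3.77e-06). LE added to IFN-γ raised Cd36 a further 2.17-fold (edgeR adjusted p = 8.17e-09) and Msr1, another scavenger receptor gene, 1.77-fold (edgeR adjusted p = 6.72e-09). SE gave 2 higher and 0 lower in the list, which were also Cd36 (1.69-fold, edgeR adjusted p = 1.63e-06) and Msr1 (1.54-fold, edgeR adjusted p = 3.7e-07). PE gave 0 called. Over all genes tested, the call rate with a peptide added was 15.5% (LE), 7.39% (SE) and 0.629% (PE).

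Genes of LPL handling were a list of 5, of which 3 were tested. All 3 fell with LE added to IFN-γ, where 15.5% of all genes tested were called. Angptl4, an inhibitor of the lipase, fell 1.98-fold (edgeR adjusted p = 0.000207), and Lmf1 and Sel1l, which help the lipase fold and leave the endoplasmic reticulum, fell 1.60-fold and 1.51-fold (edgeR adjusted p = 1.11e-06 and 6.58e-07). None was called for SE or PE added to IFN-γ, or for IFN-γ against PBS, where 7.39%, 0.629% and 18.1% of all genes tested were called. The median log2 fold change of the 3 genes was -0.68 with LE, -0.40 with SE and 0.18 with PE added to IFN-γ. Between LE and SE with IFN-γ, 1 of the 3 was called, where 4.93% of all genes tested were called. Apoc3 had 0 counts in all 24 libraries, and Gpihbp1 had at most 1. Markers moved in the same comparison: with LE added to IFN-γ, 2 of 8 macrophage markers rose, Adgre1 by 0.93 and Itgam by 0.80 on the log2 scale. Their part in these results was not tested.

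Taking the 5 lists as 1 set of 50 genes, 36 were tested with peptides alone and edgeR called 0 for LE, SE and PE, where 10, 14 and 17 had an unadjusted p under 0.05 and DESeq2 called 0, 1 and 0. Of all 12420 genes tested, 1953 (LE), 3975 (SE) and 4405 (PE) had an unadjusted edgeR p under 0.05, and edgeR called 3, 239 and 389. With a peptide added to IFN-γ, 37 were tested. LE gave 11 calls, of which 3 rose and 8 fell, and SE gave 5, of which 2 rose and 3 fell. Over all genes tested, 15.5% were called with LE and 7.39% with SE. PE gave 0 calls, where 15 genes had an unadjusted p under 0.05 and DESeq2 also called 0. Of all 12720 genes tested with PE, 3580 had an unadjusted edgeR p under 0.05 and 0.629% were called. The interaction was called for 14 of 38 with LE and 6 with SE, and for 18.9% and 7.96% of all genes tested. The list of other LXR targets had 4 of its 10 tested genes called in the LE interaction, all lower, whereas the 3 called members Abca1, Nr1h3 and Lpl were higher.

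**Figure D4:**
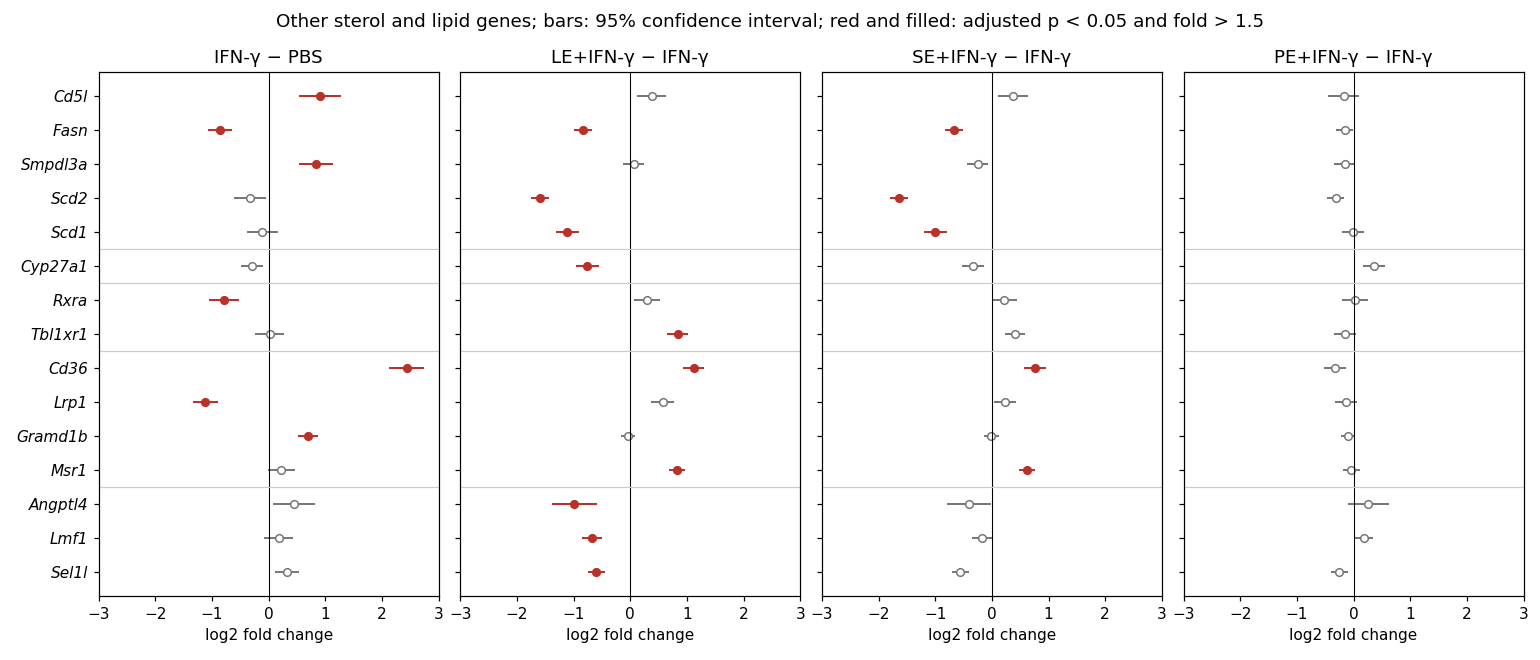
Log2 fold change (horizontal axis) with 95% confidence interval for the named genes of the 5 lists (rows, separated by lines) in 4 comparisons of the letter-labelled libraries. Red filled points were called, and in the PE+IFN-γ panel no point is filled.

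In the HLA-labelled libraries the 7 genes were at other levels. Abca1 ran from 24.7 to 62.97 CPM there and from 2.66 to 18.5 CPM in the letter-labelled ones, with a ratio of medians of 4.35. The median of Nr1h2 was 45.9 CPM against 101 CPM. Nr1h3 was at 15.65, 17.99 and 15.5 CPM in the libraries labelled LE and 20.3, 21.3 and 16.8 CPM in those labelled PE, and at 4.06 to 8.78 CPM in the other 18. The libraries labelled LE and PE are among those whose IFN-γ-induced genes went against the label, as are those labelled IFN-γ and SE+IFN-γ. The labelled groups were kept, and no comparison was drawn from them here.

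**Figure D5:**
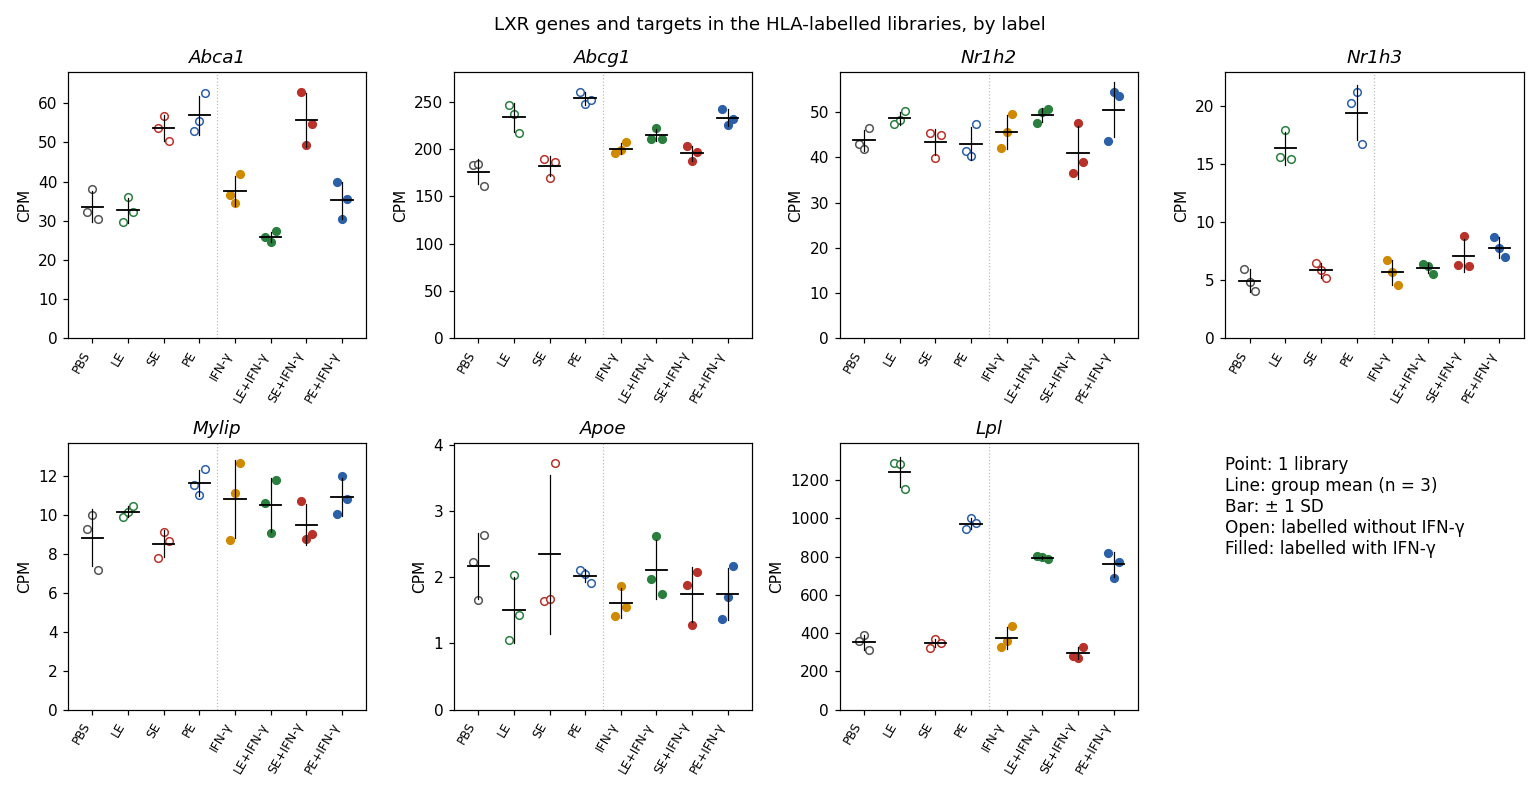
Level of each gene in CPM (vertical axis, from 0) in the 24 HLA-labelled libraries, by label (horizontal axis), with points, group means and ± 1 SD (n = 3) as for the letter-labelled libraries. The labels of these libraries are in doubt, and Nr1h3 and Lpl were highest in the libraries labelled LE and PE, at means of 16.4 and 19.4 CPM for Nr1h3 and 1241 and 973 CPM for Lpl.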

How the data were processed

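Poly(A) RNA was sequenced with single-end reads. Per the study's methods, the authors counted uniquely aligned reads per gene with featureCounts, and the deposited values are whole-number counts per gene, not normalized; the submitters' processing notes name GRCm38.p5, DESeq2 1.16.1 and R 3.4.1. Counting of unique reads lowers counts of genes with near-identical copies.

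Counts of the 24 letter-labelled libraries were tested with edgeR 4.0.16 in R 4.3.3 (TMM, filterByExpr, two-sided quasi-likelihood test), in a fit of the groups each comparison needs: IFN-γ and PBS; the 4 groups without IFN-γ; the 4 with it (Model A and peptide pairs); the 6 with a peptide (Model B); all 8 (interaction). Calls needed an adjusted p under 0.05 and a fold over 1.5. The script was tested on simulated data. Alternatives were DESeq2 1.42.0, RLE size factors, no filter, 1 fit of all groups, a replicate block, a length and GC offset, leaving out libraries, and the HLA-labelled libraries. CPM is counts per mega library counts, and exon length is from the basic transcripts of GENCODE M21. The length of a gene is that of its longest transcript.

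The 7 genes and the lists were chosen with earlier results of these data known. From each list, up to 3 called genes with the largest change were named for IFN-γ against PBS and for LE added to IFN-γ, and per member the 3 genes with the highest Pearson r. Other named genes (macrophage markers, genes at 0 counts) were chosen after their values were seen. Genes of 2 lists that are not reported here were left out of the list counts. Promoter windows are RefSeq's on GRCm38.p6. Intervals cover 95%.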

Additional observations from a re-analysis of the deposited data

Results flagged for a closer look

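The response of 3 of the 7 genes to LE, and of 18.9% of all genes tested, differed between cells without and with IFN-γ, by the interaction test of the fit of all 8 groups (edgeR quasi-likelihood, adjusted over all genes tested). The interaction on the log2 scale was 1.68 for Abca1, 0.84 for Nr1h3 and 0.67 for Lpl. The Lpl value fell under the fold threshold without PBS replicate 3 (0.58), without IFN-γ replicate 2 (0.55) and with the length and GC offset (0.41). For SE the interaction of Abca1 was 1.33, and its call was lost without SE replicate 1 or 3, IFN-γ replicate 2 or 3, or SE+IFN-γ replicate 1. That call was also lost without replicate 1 or replicate 3 of all groups. The groups of 3 letter-labelled libraries were too small for the outlier test, and none was run.

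Abca1 gave a signal in libraries outside the comparisons. Its lowest HLA-labelled library had 24.7 CPM, above the highest of the letter-labelled libraries at 18.54 CPM. Nr1h2 was separated in the other direction, with 36.41 to 54.48 CPM in the HLA-labelled libraries and 81.96 to 121.2 CPM in the letter-labelled ones. What differs between the 2 label series was not tested.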

How the results depend on the processing

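Of the 26 called values, 26 kept direction and call with DESeq2, RLE size factors, no low-count filter and a replicate block, and 22 kept the call with the length and GC offset. With the HLA-labelled libraries alone 8 were called, of which 1 kept its direction and 7 turned, and with both series and a series term 0 were called. The replicate block gave the same counts of called members: 2 for IFN-γ against PBS, 2 for peptides alone, 4 for Model A, 7 between peptides, 7 for Model B and 4 for the interaction. Same-numbered libraries correlated at -0.114 to 0.235 (median 0.049), over 0.1 in 25 of 84 pairs, and other-numbered ones at -0.223 to 0.241 (median -0.023), over 0.1 in 12 of 168. Each of 16 of 24 libraries was closest to its own number, a hint of pairing from the data. Since not every pair was over 0.1 and the labels name no shared culture, the numbers were not taken as pairs. The offset, with or without the block, gave 4 called for peptides alone. It gained the calls of Apoe for SE and PE against PBS. The block with the offset kept 22 of the 26 calls as well, but not the same 22. It ended the call of Abca1 for LE against SE (0.58). No filter on low counts gained Abca1 for LE against PBS (-0.67) and for PE in Model A (-0.80). With 1 library or replicate number left out, counts ran from 2 to 2 for IFN-γ against PBS, 0 to 2 for peptides alone, 3 to 5 for Model A, 5 to 7 between peptides, 5 to 8 for Model B and 2 to 4 for the interaction. The lowest interaction count came without IFN-γ replicate 2, which lost Abca1 for SE and Lpl for LE. Where 1 replicate number was left out of every group, 2 libraries per group remained.

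The HLA-labelled libraries alone gave 0 called members for IFN-γ against PBS, 5 for peptides alone, 4 between peptides and 4 for Model B. Both series with a series term gave 0 for IFN-γ against PBS, 1 for Model A, 1 between peptides, 1 for Model B and 0 for the interaction. In 12 of 24 HLA-labelled libraries the IFN-γ-induced genes went against the label, so these values may compare other treatments than the labels name. With them alone, 66 of 112 log2 fold changes turned sign, 40 of them called in neither fit. The 26 called in either fit were, for Abca1, 0.16 (IFN-γ against PBS), 0.70 (SE against PBS), 0.80 (PE against PBS), -0.55 (LE in Model A), -1.15 (LE against SE), -0.46 (LE against PE) and -0.62, -0.10 and -0.89 (interactions for LE, SE and PE). For Nr1h3 they were -0.38 (LE against PE), -0.11 (SE against PE), -1.55 (LE in Model B) and -1.76 (interaction for LE). For Apoe they were 0.35 (LE in Model A), 0.23 (LE against PE), 0.03 (SE against PE), 0.36 (LE in Model B) and -0.24 (PE in Model B). For Lpl they were 1.92 and 1.5 (LE and PE against PBS), 1.03 (PE in Model A), -1.34 (SE against PE), -0.77, -0.22 and -0.40 (LE, SE and PE in Model B) and -0.85 (interaction for LE). With both series and a series term, 29 turned sign, and the 5 called in either fit were 0.88 (Lpl, LE against PBS), -0.04 (Abca1, LE against SE), -0.20 (Nr1h3, LE in Model B), and -0.45 and -0.55 (Nr1h3 and Lpl, interaction for LE). The cause was not tested.

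On TMM library sizes, 54 of 56 group means moved by less than 1 SD. At 50 to 137 counts of Apoe per library, small differences were not detectable.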
